A study of Mus musculus with 10 samples.

Results

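The interleukin-1 family of cytokines and receptors was followed through knockdown of Wdr5 or Kat2b in primary mouse hepatocytes, with the question whether Il1f9 under Wdr5 knockdown stood alone or moved with its relatives. The members are 10 named genes: the agonist cytokines Il1f9, Il1f6, Il1a, Il1b, Il18 and Il33, the receptor antagonist Il1rn, and the receptors Il1r1, Il1r2 and Il1rl1. A member was read from the array probe set that carries its symbol and no other. Of the 10, 7 had such a probe set, each exactly 1, among the 16401 genes with a probe set of 1 symbol. Il1f6, Il1r1 and Il1rl1 had none in the annotation and are not analysed here. Of the 7, 5 (Il1f9, Il1a, Il1rn, Il18 and Il33) passed the filter on low values and are among the 11480 genes tested, and 2 (Il1b and Il1r2) did not. The gene list was drawn up knowing that Il1f9 stood out in the Wdr5 knockdown, so its values in that comparison are a description and carry no test.

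Hepatocytes came from male C57BL6/J mice aged 10 weeks. All libraries, controls included, were from cells transduced for 72 hours with an adenovirus at 2 to 4 plaque-forming units per cell. The virus delivered a short hairpin RNA that was non-specific (shNS, the control), targeted Wdr5 (shWDR5) or targeted Kat2b (shKAT2B). Cells then received 100 nM glucagon, the fasting hormone, or phosphate-buffered saline (PBS) for 90 minutes. The 10 libraries, each a pool of RNA from 3 culture dishes, form 6 groups. The glucagon groups of the 3 arms and the shNS PBS group hold 2 libraries each (A and B), and the PBS groups of shWDR5 and shKAT2B hold 1 library each (A). The labels give 1 hairpin per target and no untransduced group, and protein was not measured here, so effects of a knockdown and other effects of its hairpin cannot be told apart.

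Interleukin-1 family cytokines bind a ligand-specific receptor chain, which then recruits a shared accessory chain (Il1rap for most of them) and signals through Myd88, the Irak kinases and Traf6 to NF-kB. Il1a and Il1b act through Il1r1, Il1rn occupies that receptor without signalling, and Il1r2 is a decoy that binds ligand and sends no signal. Il33 acts through Il1rl1 (ST2), and Il18 acts through its own receptor and is neutralised by Il18bp. Il1f9, also called interleukin-36 gamma, and Il1f6, interleukin-36 alpha, act through Il1rl2 and are best known from keratinocytes and other barrier epithelia, while Il1f5 is the antagonist of that receptor. In liver, Kupffer cells (the resident macrophages) are a main source of Il1b and Il18, and hepatocytes answer interleukin-1 with acute-phase proteins.

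The hairpins lowered their targets in every library of their arm: Wdr5 by 3.33-fold in shWDR5 and Kat2b by 6.52-fold in shKAT2B. Library medians lay between 282.1 and 298.2 intensity units. All 9 measured hepatocyte markers passed the filter by their mean over the 10 libraries. The mean level of the 9 was 10.96 to 12.01 on the log2 scale over the libraries. A further difference between libraries remained once arm and treatment were fitted. The leading component of the residuals, with 78% of their variance, set the A libraries of shNS PBS and of the 3 glucagon groups (the first library set, 4 libraries) apart from the other 6 (the second set), which hold 1 library of each group. The mean of 15 macrophage markers was 8.56 to 8.89 in the first set and 9.08 to 9.53 in the second, and that of 8 endothelial markers 8.26 to 8.41 and 8.66 to 9.07. Since several members differ between the sets too, results are given over all 10 libraries and then adjusted for the library set or within a set. Because the sets were found in these same libraries, adjusted fits may understate the spread.

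Promoter windows are shown here for the member the results turn on, Il1f9, and for the pair of members with the next largest Wdr5 knockdown differences, Il1rn and Il1a, which all lie on chromosome 2. RefSeq (assembly GRCm38.p6) gives 14 windows of 300 bases, from 250 before to 50 after a transcription start, for 9 of the 10 members. Capitals mark matches to 5 motifs searched on both strands: AP-1 (TGANTCA), the cAMP response element (TGACGTCA), C/EBP (TTGCNNAA), the NF-kB consensus, and the TATA box (TATAAA). The marked stretches in the 3 windows do not overlap one another.
Il1f9, chr2:24186226-24186525, plus strand: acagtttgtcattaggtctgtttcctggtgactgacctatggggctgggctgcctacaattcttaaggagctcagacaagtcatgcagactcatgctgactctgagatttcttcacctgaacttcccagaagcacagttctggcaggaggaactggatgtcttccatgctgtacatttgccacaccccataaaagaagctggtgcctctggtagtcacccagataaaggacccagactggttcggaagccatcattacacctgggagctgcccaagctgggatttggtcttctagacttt
Il1rn, chr2:24336610-24336909, plus strand, 1 of its 3 windows: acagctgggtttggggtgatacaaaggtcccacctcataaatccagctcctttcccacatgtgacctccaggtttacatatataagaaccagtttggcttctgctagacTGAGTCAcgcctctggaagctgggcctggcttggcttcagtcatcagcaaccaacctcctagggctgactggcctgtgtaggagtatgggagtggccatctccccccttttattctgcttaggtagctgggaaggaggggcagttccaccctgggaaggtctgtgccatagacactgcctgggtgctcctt
Il1a, chr2:129309923-129310222, minus strand: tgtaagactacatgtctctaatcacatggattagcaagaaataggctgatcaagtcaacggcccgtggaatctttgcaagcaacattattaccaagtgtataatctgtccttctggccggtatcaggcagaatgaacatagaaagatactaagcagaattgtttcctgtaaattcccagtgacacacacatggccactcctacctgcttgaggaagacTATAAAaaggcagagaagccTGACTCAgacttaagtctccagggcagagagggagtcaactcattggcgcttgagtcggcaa
The Il1f9 window held no match to any of the 5 motifs, 1 CpG and 49.7% G or C. The Il1rn window held 1 AP-1 match, which begins 141 bases before the start, and 1 CpG. The Il1a window held an AP-1 match 12 bases and a TATA box match 32 bases before the start, and 5 CpG. Over all 32851 RefSeq windows of this length, 7.81% held an AP-1 match, 1.79% a cAMP response element, 10.8% a C/EBP match, 4.51% the NF-kB consensus and 13.6% a TATA box. The median window held 7 CpG (quartiles 3 and 20) and 52.7% G or C, and 23.3% of windows held at most 2 CpG. No match says only that these letters are not in this window.

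Il1f9 (probe set 10469786) was high in every shWDR5 library. It stood at 7.07 and 7.36 in shNS PBS A and B, at 6.96 and 7.48 in shNS glucagon A and B, at 9.70 in shWDR5 PBS, at 9.12 and 9.80 in shWDR5 glucagon A and B, at 6.73 in shKAT2B PBS, and under glucagon at 5.90 and 6.72 in shKAT2B A and B (log2 of intensity plus 1). On the deposited linear scale that was 124 to 177 units in the 4 shNS libraries, 556 to 891 in the 3 shWDR5 libraries and 58.9 to 105 in the 3 shKAT2B libraries. The 3 arms did not overlap: all shWDR5 libraries lay above all shNS libraries, and all shKAT2B libraries lay below them.

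**Figure D1:**
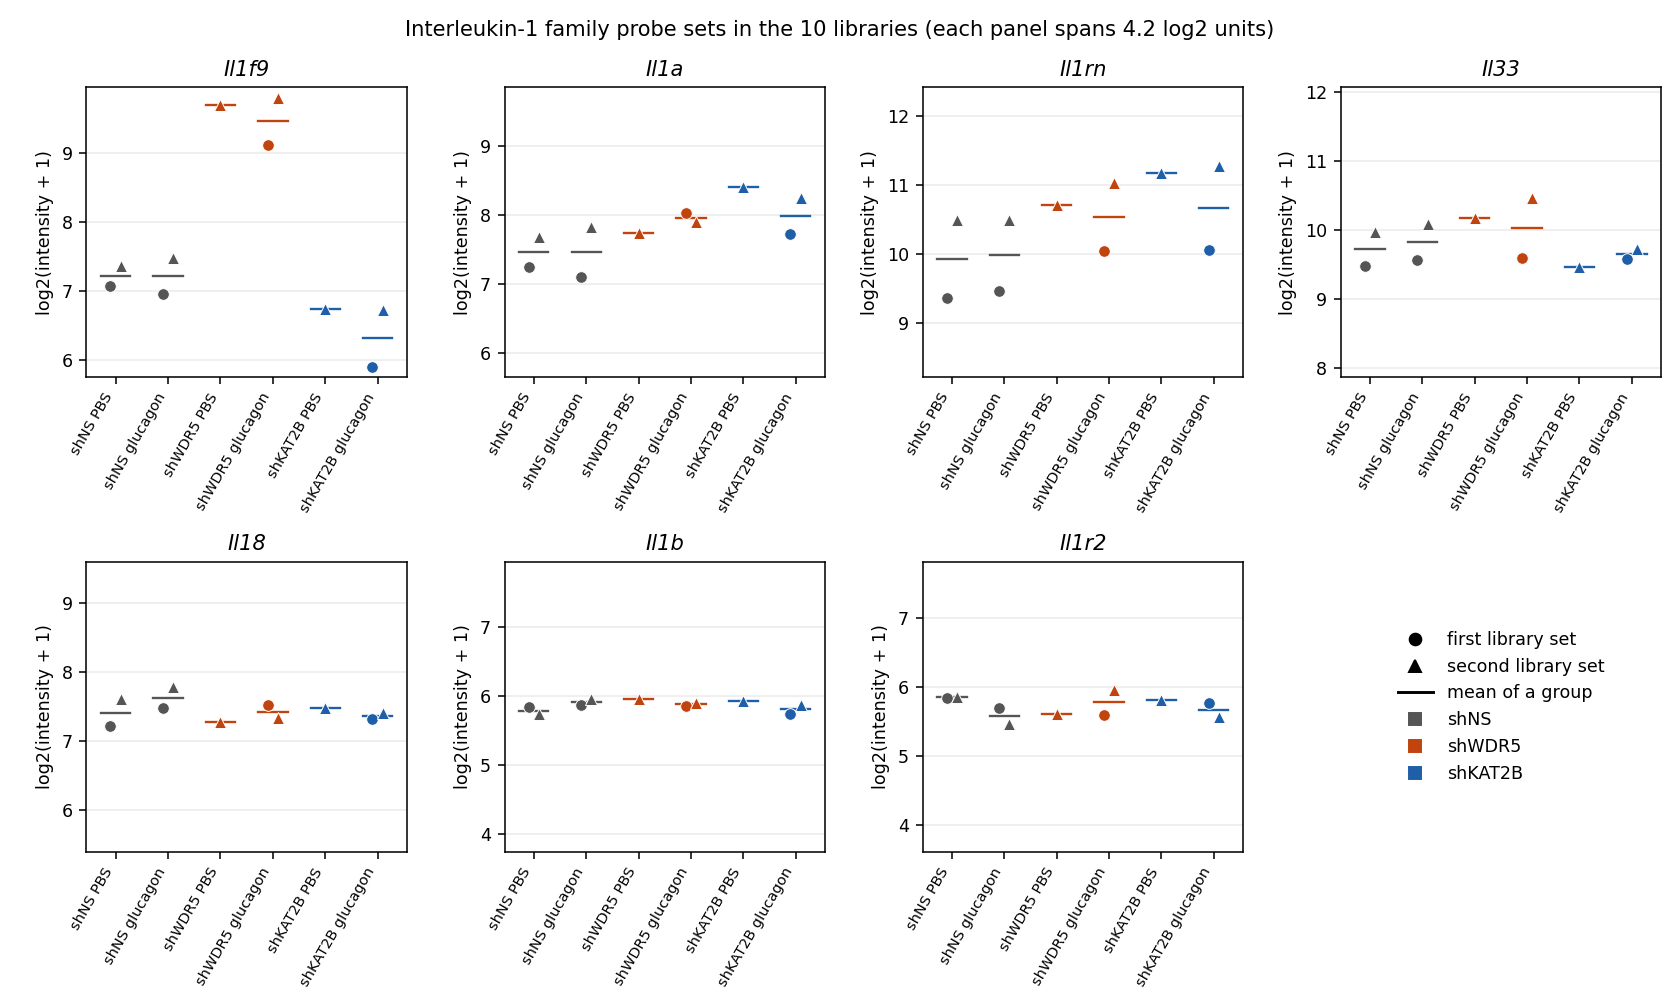
Level of each measured member, as log2(intensity + 1), in the 6 groups on the x axis. Points are libraries (circles, first library set; triangles, second), lines are group means, and every panel spans the same number of log2 units. Il1f9 separates the arms, from 5.90 to 9.80, while Il1rn separates the library sets within every group that holds both, and Il1b and Il1r2 stay between 5.47 and 5.97.

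Ordered by mean, Il1f9 was 9.70 in shWDR5 PBS (1 library), 9.46 ± 0.48 in shWDR5 glucagon, 7.22 ± 0.37 in shNS glucagon, 7.21 ± 0.20 in shNS PBS, 6.73 in shKAT2B PBS (1 library) and 6.31 ± 0.58 in shKAT2B glucagon (log2, SD, n = 2 where an SD is given). Within an arm the PBS and glucagon groups did not differ beyond their spread. The step between the shWDR5 groups and the rest was larger than any spread within a group.

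In the fit over both treatments, Il1f9 was 2.36 ± 0.24 higher on the log2 scale in shWDR5 than in shNS (standard error, 3 against 4 libraries, 95% interval 1.82 to 2.89), or 5.12-fold. This was the largest difference of the 11480 genes tested. Adjusted for the library set, the difference was 2.23 ± 0.09. Library against library within a set and a treatment, it was 2.16 in the first set under glucagon, 2.32 in the second set under glucagon and 2.34 in the second set under PBS. Leaving out each library in turn gave 2.19 to 2.53. Across the 11480 genes, 10.9% were called in the Wdr5 comparison (adjusted p below 0.05), a share from which nothing is read about Il1f9, since this contrast chose it.

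Over all 10 libraries no other tested member reached the threshold with Wdr5 knockdown, while adjustment for the library set brought Il1rn past it. Of the 4 other tested members, 0 were called by limma, against the background of 10.9%. An unadjusted p below 0.05 was reached by 0 of the 4 and by 2956 of the 11480 genes. With the library set as a term 1 of the 4 was called (Il1rn, higher), where 36.8% of all genes were called. In the second set alone 3 of the 4 were called (Il1rn and Il33 higher, Il18 lower), where 27.9% of all genes were called and no group is replicated. The differences over all libraries were 0.67 for Il1rn, 0.43 for Il1a, 0.29 for Il33 and -0.16 for Il18 on the log2 scale. By size of difference, Il1rn ranked 265th, Il1a 849th, Il33 2007th and Il18 4586th of the genes tested.

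**Figure D2:**
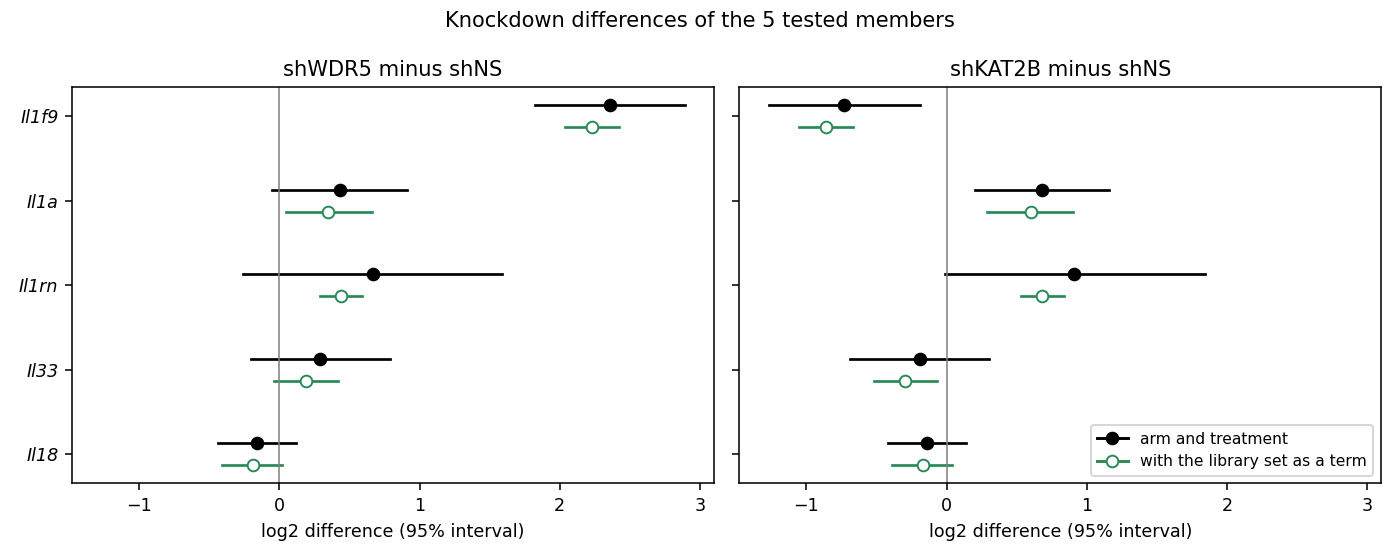
Log2 difference between each knockdown arm and shNS for the 5 tested members, with 95% intervals, from the fit of arm and treatment (filled) and from the fit with the library set as a further term (open). In shWDR5 the Il1f9 point lies at 2.36 and the others between -0.16 and 0.67, and in shKAT2B Il1f9 lies at -0.73 with Il1a at 0.68 and Il1rn at 0.91.

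Il1a (probe set 10487588), an alarmin that signals through Il1r1, stood at 7.24 and 7.68 in shNS PBS, 7.10 and 7.82 in shNS glucagon, 7.74 in shWDR5 PBS, 8.03 and 7.89 in shWDR5 glucagon, 8.40 in shKAT2B PBS, and 7.73 and 8.24 in shKAT2B glucagon (log2 level, A before B). Both knockdown arms lay on the high side of the controls. In shWDR5 each library exceeded the shNS libraries of its treatment, and 15.2% of all genes tested were likewise higher without overlap in that comparison. The difference in shWDR5 was 0.43 ± 0.21 (95% interval -0.05 to 0.91, limma adjusted p = 0.24). It was uneven over the library sets: 0.92 in the first set under glucagon, but 0.07 and 0.06 in the second set under glucagon and PBS. In shKAT2B the difference was 0.68 ± 0.21 (0.20 to 1.16, adjusted p = 0.063), and the groups overlapped under glucagon. There the matched libraries gave 0.63, 0.43 and 0.73, and the fit with the library set gave 0.60 with an adjusted p of 0.00443. Leaving out shNS glucagon B (0.85, adjusted p = 0.0292) or shKAT2B glucagon A (0.87, adjusted p = 0.0216) brought Il1a past the threshold in shKAT2B, and leaving out others gave differences down to 0.48.

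Il1rn (probe set 10469816), the secreted and intracellular antagonist of Il1r1, had the widest spread within groups of the 7 measured members. It stood at 9.36 and 10.49 in shNS PBS, 9.47 and 10.50 in shNS glucagon, 10.71 in shWDR5 PBS, 10.05 and 11.03 in shWDR5 glucagon, 11.18 in shKAT2B PBS, and 10.06 and 11.28 in shKAT2B glucagon (log2 level, A before B). The low libraries in every group with a pair were those of the first set, and the second set exceeded the first by a mean of 1.09 over those 4 groups. Over all libraries Il1rn differed by 0.67 ± 0.41 in shWDR5 (95% interval -0.26 to 1.59, limma adjusted p = 0.351) and by 0.91 ± 0.41 in shKAT2B (-0.01 to 1.84, adjusted p = 0.178), so neither passed. Set against a control of the same set and treatment, every knockdown library was higher: by 0.58, 0.53 and 0.22 in shWDR5 and by 0.59, 0.78 and 0.69 in shKAT2B. Adjusted for the library set, Il1rn rose by 0.44 ± 0.07 in shWDR5 (adjusted p = 0.000404) and by 0.68 ± 0.07 in shKAT2B (adjusted p = 8.7e-06). In those fits 36.8% and 41.5% of all genes were called. Macrophage markers lay on the same side. All 13 tested markers lay above 0 in both knockdown comparisons, with medians of 0.25 in shWDR5 and 0.45 in shKAT2B. Of the 13, 0 were called in either, where 4.69% and 6.66% of all genes were called higher. All 8 endothelial markers also lay above 0 in both, with medians of 0.30 and 0.32. After the same adjustment 12 of the 13 macrophage markers lay above 0 in each comparison, and 6 and 9 were called higher. Of the 8 endothelial markers 2 and 4 were then called higher, where 18.8% and 21.5% of all genes were. The part of these cell types in the Il1rn and Il1a differences was not tested. In bulk RNA more cells of a type and more RNA per cell cannot be told apart.

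**Figure D3:**
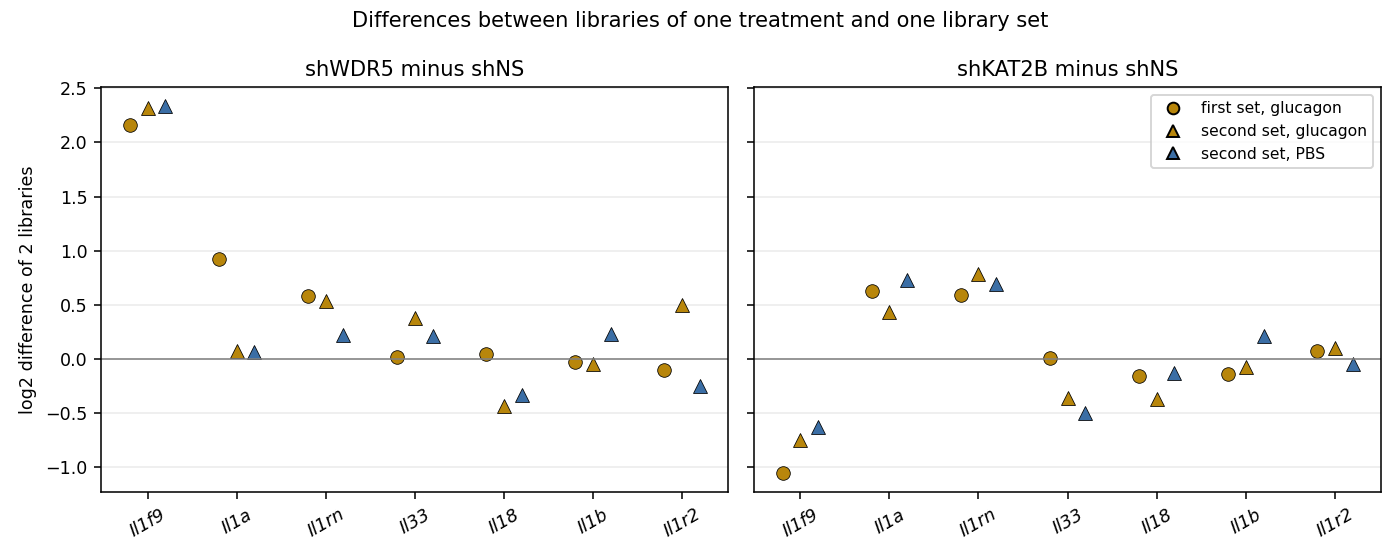
Log2 difference between 2 libraries of the same library set and treatment, knockdown minus shNS, for each of the 7 measured members. Circles are the first set under glucagon, triangles the second set under glucagon (ochre) or PBS (blue). Il1f9 lies at 2.16 to 2.34 in shWDR5 and at -1.06 to -0.63 in shKAT2B, and Il1rn lies above 0 in all 6 pairs.

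Il33 (probe set 10462442), a nuclear alarmin released from damaged cells that acts through Il1rl1, was 9.48 and 9.97 in shNS PBS, 9.57 and 10.09 in shNS glucagon, 10.18 in shWDR5 PBS, 9.59 and 10.47 in shWDR5 glucagon, 9.47 in shKAT2B PBS, and 9.58 and 9.73 in shKAT2B glucagon (log2 level, A before B). It was highest in the second-set libraries of shWDR5, and the groups overlapped. The difference was 0.29 ± 0.22 in shWDR5 (95% interval -0.20 to 0.79, limma adjusted p = 0.452) and -0.19 ± 0.22 in shKAT2B (-0.69 to 0.30, adjusted p = 0.625). In the first set under glucagon both differences were near 0, at 0.02 and 0.01. In the second set they were 0.38 and 0.21 in shWDR5 and -0.36 and -0.50 in shKAT2B. Adjusted for the library set they were 0.19 (adjusted p = 0.18) and -0.30 (adjusted p = 0.0371). The second set alone gave 0.29 (adjusted p = 0.00809) and -0.43 (adjusted p = 0.000544), from fits in which no group is replicated. Over all libraries, leaving out 1 in turn gave 0.11 to 0.55 in shWDR5 and -0.30 to -0.07 in shKAT2B.

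Il18 (probe set 10585194), made as a precursor that caspase-1 cleaves, lay between 7.22 in shNS PBS A and 7.78 in shNS glucagon B (log2 level). It was 7.61 in shNS PBS B, 7.48 in shNS glucagon A, 7.28 in shWDR5 PBS, 7.52 and 7.34 in shWDR5 glucagon, 7.48 in shKAT2B PBS, and 7.32 and 7.41 in shKAT2B glucagon. The arms overlapped. Its differences were -0.16 ± 0.12 in shWDR5 (95% interval -0.44 to 0.12, limma adjusted p = 0.472) and -0.14 ± 0.12 in shKAT2B (-0.42 to 0.14, adjusted p = 0.53). Matched within set and treatment, the shWDR5 differences were 0.04 in the first set and -0.44 and -0.33 in the second under glucagon and PBS. In the shKAT2B arm they were -0.16, -0.37 and -0.13. Il18 fell by 0.38 in shWDR5 in the second set alone (adjusted p = 0.0112), and the fit with the library set gave -0.19 (adjusted p = 0.145).

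Il1b, the interleukin-1 that activated macrophages release, and the decoy receptor Il1r2 lay in the lowest part of the array's range. Il1b (probe set 10487597) was between 5.74 and 5.96 and Il1r2 (probe set 10345752) between 5.47 and 5.97 over the 10 libraries, under the filter level of 7.13 (log2). Fitted without the filter, Il1b differed by 0.05 ± 0.08 in shWDR5 and 0.00 ± 0.08 in shKAT2B, and Il1r2 by 0.03 ± 0.12 and 0.02 ± 0.12 (limma adjusted p of 0.784 or more). No difference was detected at these levels, which does not show that the RNA was absent.

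In Kat2b knockdown the sign was opposite for Il1f9. Il1f9 passed the filter only through its shWDR5 libraries: its mean over the other 7 was 6.89, under the filter level of 7.13, and all shKAT2B libraries lay under that level. Its values in this comparison are therefore those of a dim probe set. Il1f9 differed by -0.73 ± 0.24 (3 against 4 libraries, 95% interval -1.27 to -0.19, limma adjusted p = 0.0703, and 0.0809 with no filter), or 1.66-fold lower, and the groups did not overlap within either treatment. Over all genes 16.6% lay lower without overlap in this comparison. Matched within set and treatment, Il1f9 differed by -1.06, -0.75 and -0.63. Adjusted for the library set the difference was -0.86 ± 0.09, and in the second set alone -0.69. Both are given without a test, since Il1f9 passed the filter only through shWDR5. This comparison shares its shNS libraries with the Wdr5 comparison. Of the 5 tested members, 0 were called over all libraries, against 15.6% of all genes called. Apart from Il1f9, only Il1a had an unadjusted limma p below 0.05, where 3331 of the 11480 genes had one. With the library set as a term, Il1rn and Il1a were called higher, Il33 lower and Il18 in neither direction, against a background of 41.5%. Il1f9, whose mean outside shWDR5 lay under the filter level, is left out of the calls in that fit. Nothing is read from its part in the 5.

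The knockdown arms can also be set against each other without the controls. Il1f9 was 3.09 ± 0.25 higher in shWDR5 than in shKAT2B (3 against 3 libraries, 95% interval 2.52 to 3.66), or 8.50-fold, given without a test. Il33 was 0.49 ± 0.23 higher (-0.04 to 1.01, limma adjusted p = 0.172), and Il1a, Il1rn and Il18 differed by -0.24, -0.24 and -0.02 with adjusted p of 0.493, 0.74 and 0.925. Of the 4 members other than Il1f9, 0 were called, with 22.7% of all genes called. An unadjusted p below 0.05 was reached by 0 of the 4 and by 4078 of the 11480 genes. In the fit adjusted for the library set Il33 was higher (0.49, adjusted p = 0.00241) and Il1rn lower (-0.24, adjusted p = 0.0143) in shWDR5 than in shKAT2B, in a fit that called 50.4% of all genes.

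Over all 10 libraries glucagon left the tested members within their spread at 90 minutes. The shared glucagon difference was -0.19 ± 0.20 for Il1f9 (95% interval -0.64 to 0.27), -0.17 ± 0.35 for Il1rn, -0.06 ± 0.18 for Il1a, 0.05 ± 0.19 for Il33 and 0.10 ± 0.11 for Il18, over 6 glucagon and 4 PBS libraries. Of the 5, 0 were called by limma and the lowest adjusted p was 0.962, against 0.923% of all genes called. An unadjusted p below 0.05 was reached by 0 of the 5 and by 549 of the 11480 genes. The 5 include Il1f9, which passed the filter only through its shWDR5 libraries. With the library set as a term 0 of the 5 were called, where 385 of 11480 genes were called. In that fit 1 of the 5, Il1rn, had an unadjusted p below 0.05 (0.14 ± 0.06, limma adjusted p = 0.441), as did 1213 of all genes. The change of the glucagon response with a knockdown was -0.24 ± 0.54 for Il1f9 in shWDR5 and -0.42 ± 0.54 in shKAT2B. For either interaction limma called 0 of 5 members and 0.0% of all genes, and 0 members had an unadjusted p below 0.05. Over all genes 20 had one for shWDR5 and 36 for shKAT2B. The intervals of -1.51 to 1.02 and -1.69 to 0.84 leave room for changes over 2-fold in either direction for shWDR5 and downward for shKAT2B. With the library set as a term 0 of 5 members were called for either interaction. The Il1rn interaction in shWDR5 was then 0.31 ± 0.12, with an unadjusted limma p of 0.023, where 255 of all genes had one below 0.05.

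The other ligands and receptors of the family were read from a list of 11 genes, of which 6 had a probe set and 3 (Il1rap, Il18bp and Sigirr) passed the filter. Of these 3, 0 were called in shWDR5, in shKAT2B or with glucagon, where 10.9%, 15.6% and 0.923% of all genes were called. Adjusted for the library set, 1 rose and 1 fell in shWDR5 and 1 fell in shKAT2B. In those fits 18.8% of all genes rose and 18.0% fell in shWDR5, and 20.1% fell in shKAT2B. Il1rl2, the receptor chain for Il1f9, lay under the filter at 5.87 to 6.42 over the 10 libraries, and its antagonist ligand Il1f5 at 5.62 to 5.82. They are singled out here for their relation to Il1f9. Il1rap, the shared accessory chain, stood at 8.38 to 9.01 in shNS, 8.67 to 9.06 in shWDR5 and 7.85 to 8.46 in shKAT2B (log2 level). Its difference was 0.16 ± 0.19 in shWDR5 (limma adjusted p = 0.653) and -0.56 ± 0.19 in shKAT2B (adjusted p = 0.0748). Once the library set was in the fit, Il1rap rose by 0.26 in shWDR5 (adjusted p = 0.00557) and fell by 0.46 in shKAT2B (adjusted p = 6.51e-05). Sigirr, an inhibitory receptor of the family, differed by -0.26 ± 0.08 in shWDR5 (adjusted p = 0.0728, and -0.28 with 0.00708 after adjustment for the library set), with 7.57 to 7.71 there and 7.78 to 7.98 in shNS.

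Of 30 genes of cytokine processing and signalling, 26 had a probe set and 23 were tested. With Wdr5 knockdown 2 of the 23 rose and 2 fell, where 4.69% of all genes were called higher and 6.17% lower, and the list's median difference was -0.07 beside -0.01 over all genes. Peli1, a ubiquitin ligase acting on Irak proteins, rose by 0.37 ± 0.06 (limma adjusted p = 0.00613), and Tab2, an adaptor of the kinase Map3k7, rose by 0.20 ± 0.05 (adjusted p = 0.0323). Irak2, a kinase-like protein downstream of Myd88, fell by 0.37 ± 0.08 (adjusted p = 0.0182), and Gsdmd, the pore through which mature cytokine leaves a cell, fell by 0.26 ± 0.07 (adjusted p = 0.0444). The call for Peli1 held with any 1 library left out. Leaving out 1 library ended it in 3 of 10 cases for Irak2 (adjusted p up to 0.075 without shNS glucagon A), 8 for Tab2 (up to 0.151) and 9 for Gsdmd (up to 0.241), the last pair without shWDR5 PBS. With Kat2b knockdown 1 of 23 passed: Irak2 fell by 0.29 ± 0.08 (adjusted p = 0.0296, up to 0.162 without shKAT2B PBS), where 15.6% of all genes were called and 8.95% called lower, and the median was -0.04. In the fit with the library set 2 of the 23 rose and 5 fell in shWDR5, and 1 rose and 5 fell in shKAT2B, with 36.8% and 41.5% of all genes called. With glucagon, where 0.679% of all genes were called higher and 0.244% lower, 1 of the 23 rose and 1 fell. Nfkbiz, a nuclear NF-kB cofactor, rose by 0.76 ± 0.08 (adjusted p = 0.00203) and Peli1 fell by 0.30 ± 0.05 (adjusted p = 0.0257, up to 0.2 without shKAT2B PBS).

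**Figure D4:**
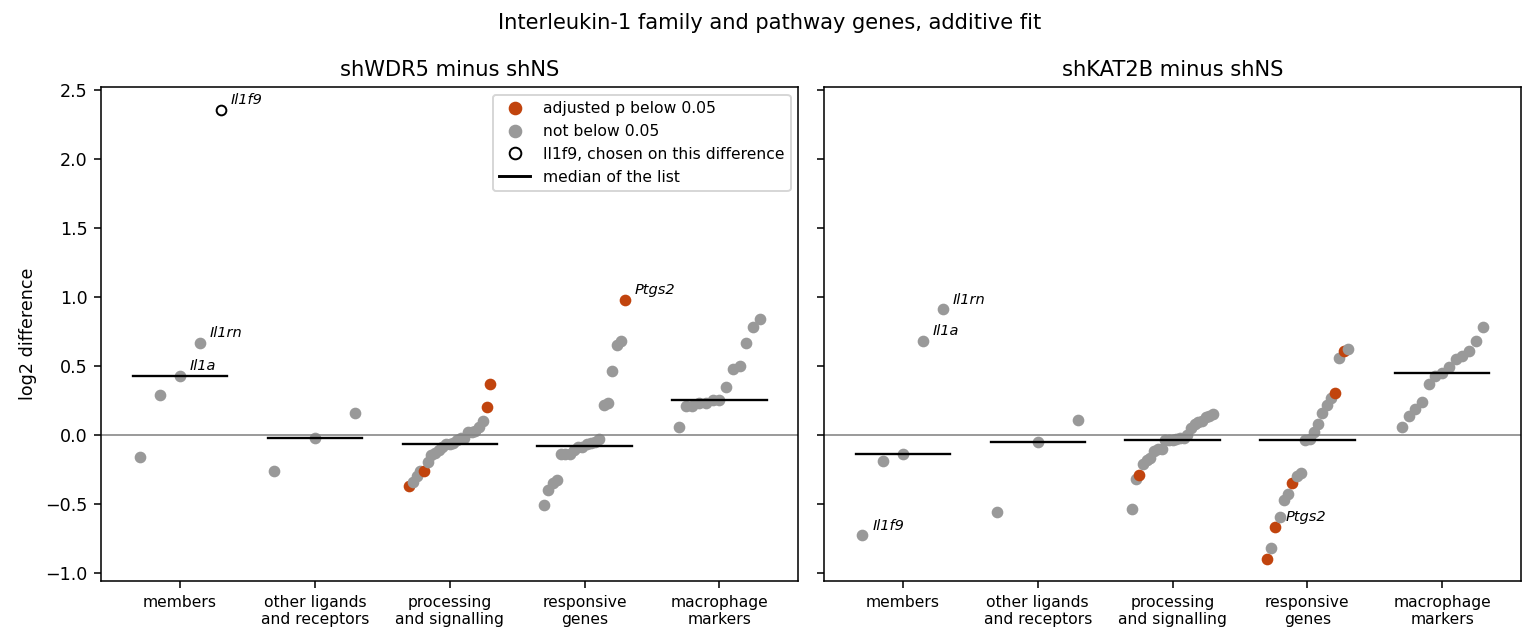
Log2 difference from shNS of each tested gene of the family and of 4 further lists, by knockdown. Coloured points passed an adjusted p of 0.05, the open point is Il1f9 in shWDR5, which was chosen on that difference, and lines are list medians. In shWDR5 Il1f9 (2.36) and Ptgs2 (0.98) lie above the rest, and in shKAT2B both lie below 0, at -0.73 and -0.67.

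A list of 25 hepatocyte genes that interleukin-1 and NF-kB are known to induce held 23 with a probe set, of which 20 were tested. With Wdr5 knockdown 1 of the 20 rose and 0 fell, where 4.69% of all genes were called higher and 6.17% lower, and the median was -0.08. In the set-adjusted fit 5 of the 20 rose and 9 fell, where the shares of all genes were 18.8% and 18.0%. The gene that rose was Ptgs2, the inducible cyclooxygenase. It stood at 10.41 and 10.78 in shNS PBS, 10.40 and 10.66 in shNS glucagon, 11.37 in shWDR5 PBS, 11.54 and 11.72 in shWDR5 glucagon, 9.97 in shKAT2B PBS, and 9.63 and 10.07 in shKAT2B glucagon (log2 level, A before B). The 3 arms did not overlap, with shWDR5 highest and shKAT2B lowest. Within each treatment, 15.2% of all genes lay higher without overlap in shWDR5, and 16.6% lay lower in shKAT2B. Ptgs2 rose by 0.98 ± 0.14 in shWDR5 (limma adjusted p = 0.00474, and no left-out library ended the call). It fell by 0.67 ± 0.14 in shKAT2B (adjusted p = 0.0125, but 0.0572 without shKAT2B PBS).

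With Kat2b knockdown 2 of the 20 responsive genes rose and 3 fell, where 6.66% of all genes were called higher and 8.95% lower, and the median was -0.03. Besides Ptgs2, the acute-phase protein gene Saa2 fell by 0.90 ± 0.26 (limma adjusted p = 0.048) and Sod2, the mitochondrial superoxide dismutase, by 0.35 ± 0.09 (adjusted p = 0.025). The adhesion molecule gene Icam1 rose by 0.61 ± 0.14 (adjusted p = 0.0195), and Zc3h12a, an RNase that degrades cytokine messages and was named after its value was seen, by 0.30 ± 0.09 (adjusted p = 0.049). Without shKAT2B PBS the adjusted p was 0.162 for Saa2, 0.158 for Sod2 and 0.114 for Icam1. With glucagon the chemokine gene Cxcl1 fell by 0.87 ± 0.16 (adjusted p = 0.0489, up to 0.282 without shKAT2B PBS). With the library set in the fit, 5 of the 20 rose and 8 fell in shKAT2B, where 21.5% of all genes were called higher and 20.1% lower.

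Markers of cells in which Il1f9 or its relatives are usually found were read beside these results. Of 7 measured keratinocyte and squamous markers 5 were under the filter, and the mean of the 7 was 7.73 to 8.05 over the libraries. Of the other 2, Sprr1a differed by -0.03 ± 0.06 in shWDR5 and 0.01 ± 0.06 in shKAT2B. Sprr1b, a cornified envelope protein gene, differed by 0.47 ± 0.26 in shWDR5 (limma adjusted p = 0.298). It rose by 0.93 ± 0.26 in shKAT2B (adjusted p = 0.0398, but 0.275 without shKAT2B PBS). Of 7 measured neutrophil and leukocyte markers 6 were under the filter, with a mean of 6.32 to 6.60. Of 3 tested bile duct markers Krt19 and Krt7 fell in shWDR5, by 0.80 (adjusted p = 0.0433, up to 0.234 without shWDR5 PBS) and 0.46 (0.0258, up to 0.136 without shWDR5 PBS). Krt7 also fell in shKAT2B, by 0.44 (adjusted p = 0.0229, up to 0.157 without shKAT2B PBS). Of 9 hepatocyte markers 2 fell in shWDR5 (Alb by 0.30 and Trf by 0.24) and 4 in shKAT2B (Ttr by 0.91, Cps1 by 0.64, Fgb by 0.46 and Hnf4a by 0.33), where 6.17% and 8.95% of all genes were called lower. Leaving out 1 library ended the call for Alb in 5 of 10 cases, Cps1 in 6, Fgb in 1 and Hnf4a in 1, with the highest adjusted p (0.0802, 0.13, 0.072 and 0.0546) without the PBS library of the arm. After adjustment for the library set 5 and 9 of the 9 fell, where 18.0% and 20.1% of all genes were called lower. Of 8 endothelial markers 0 were called in shWDR5 and 1, Eng, rose in shKAT2B by 0.48 (adjusted p = 0.0204, up to 0.152 without shKAT2B PBS). Of 9 stellate cell and fibroblast markers 0 were called in either arm. In the same fits 4.69% of all genes were called higher in shWDR5 and 6.66% in shKAT2B. With the library set as a term, 2 of the 8 endothelial and 3 of the 9 stellate markers rose in shWDR5. In shKAT2B 4 of the 8 and 5 of the 9 then rose. In those fits 18.8% and 21.5% of all genes were called higher. Of 4 mesothelial markers 1 passed the filter, Msln, which fell in shKAT2B by 0.74. The part of these cell types in the member values was not tested.

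By Pearson correlation over the 10 libraries, the genes whose levels followed Il1f9 most closely were Cbfb (0.991), Neto2 (0.988), Cnot3 (0.977), Lmnb1 (0.976) and Slc25a13 (0.976), of 11479 genes. Since these 5 were picked by that correlation, a step in shWDR5 like that of Il1f9 was given in advance. In the same order, their shWDR5 differences were 0.40 ± 0.07, 0.82 ± 0.13, 0.14 ± 0.05, 0.97 ± 0.13 and 0.17 ± 0.06. Their shKAT2B differences were not much larger than their standard errors, at -0.11 ± 0.07, -0.22 ± 0.13, -0.06 ± 0.05, -0.07 ± 0.13 and -0.10 ± 0.06. The other members stood lower on this measure: Il33 at 0.689 (rank 1038), Il1rn at 0.21 (rank 3784), Il1a at 0.08 (rank 4641) and Il18 at -0.114 (rank 5924). These points share their libraries, and the correlation mostly reads the step between arms.

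Il1f9 lies within the interleukin-1 cluster of chromosome 2, beside Il1f6 and Il1f8 and, in the RefSeq gene order, 5 places from Il1rn. Of the 10 nearest genes in that order (5 on each side) 3 had a probe set. Hnmt, the histamine N-methyltransferase gene, differed by -0.31 ± 0.13 in shWDR5 (limma adjusted p = 0.175), Il1f5, under the filter, by -0.03, and Il1rn as given above. From Il1f8 to Il1b, the outermost family genes of the chromosome, the RefSeq order holds 2134 genes, with Il1b 2131 places from Il1f9. This long stretch is not the close neighbourhood of Il1f9, and 505 of its genes other than members were tested. With Wdr5 knockdown 19 of them were called higher and 34 lower, or 10.5%, beside 10.9% of all genes.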

How the data were processed

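RNA was measured on an Affymetrix Mouse Gene array, named in the probe annotation. The authors deposited linear-scale intensity values for 26913 probe sets. Per the submitters' processing notes they used Affymetrix Expression Console 1.1.1. The normalization method and the genome build are not given in the sources used here. Of the probe sets, 17873 carried 1 symbol, 1128 several and 7912 none. Per gene the probe set with the highest mean was kept. Values were taken as log2 of the deposited intensity plus 1, and the lowest 30% of genes were left out of the tests.

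The fits used limma 3.58.1 under R 4.3.3 (eBayes with a trend; tables and figures with Python 3.11.15). The model of arm and treatment had 6 residual degrees of freedom and that of the 6 groups, used for interactions, had 4. In both, groups with 1 library were assumed to vary like the others. Tests were two-sided with Benjamini-Hochberg adjustment over all 11480 genes, with a call at an adjusted p below 0.05. The fits were tested on simulated data with independent noise in each library. Those data held no difference between library sets, and the set-adjusted fits were not run on them. Arrays have no depth, and their number limits the precision. Nothing in the labels says that A and B are separate animals, so p-values measure the spread between these pools. In 4 groups the A libraries deviate together (correlations of 0.721 to 0.844), but the A libraries of the PBS knockdown groups lie with the B libraries, so the letters were treated as names. The members and lists were chosen with earlier results of these data known. All members are named, with up to 4 called genes per list and comparison (or up to 2 that do not pass), the 5 genes most correlated with Il1f9 and its neighbours.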

Additional observations from a re-analysis of the deposited data

How the results depend on the processing

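The Il1f9 difference in shWDR5 moved by less than the spread between replicate libraries under every alternative run for it: quantile or median scaling, no filter, pseudocounts of 16 or none, the mean of a gene's probe sets, no trend, the library set, fewer arms, and each library left out. The counts of called members, all 0 over the 10 libraries, depended on how the library difference was handled. With the letter A or B as a replicate block they were 3 of 4 for Wdr5, 3 of 5 for Kat2b and 1 of 4 for the difference between the knockdowns. For the interactions with glucagon they were 1 of 5 for Wdr5 and 2 of 5 for Kat2b. The share of all genes called with this block is not given here, so nothing is read about the family from these counts. Counts out of 5 include Il1f9, which passed the filter only through shWDR5, and nothing is read from its part in them. In the block fit Il1rn was 0.88 higher (limma adjusted p = 0.00678) and Il1a 0.51 higher (adjusted p = 0.0443) in shWDR5. There Il33 was 0.39 higher (adjusted p = 0.0478), and Il18, at -0.13, was not called. With the library set as a term the counts were 1 of 4 for Wdr5, 4 of 5 for Kat2b (Il1f9 among the 4) and 2 of 4 for their difference. In those fits 36.8%, 41.5% and 50.4% of all genes were called. The second set alone also changed the counts, but no group is replicated there. Leaving out a library gave 0 to 1 for Kat2b (1 without shNS glucagon B or shKAT2B glucagon A, both Il1a) and 0 to 1 for the difference between the knockdowns (1 without shWDR5 glucagon A, Il33). The glucagon count stayed at 0 in all settings run. Of 2561 values for 121 other results, 2222 kept their call, 205 lost and 134 gained it, and 0 reversed. Il1rap in shKAT2B passed under quantile (adjusted p = 0.0403) and median scaling (0.0406). The causes of these shifts were not tested. Leaving out the dimmer 50% of genes removes Il1f9, Il1a and Il18. The second set alone gives no interaction, and the fit of only 2 arms does not apply to glucagon, so these were not run.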
